A study of Mus musculus with 8 samples.

Results

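The REG genes encode small secreted C-type lectins of the gut and pancreas. The 6 genes described here are Reg3a, Reg3b, Reg3g, Reg3d, Reg4 and Reg1, out of 55414 gene identifiers counted in Paneth cells of the mouse small intestine. They were chosen by name as a gene family, after the diet difference of Reg3b and Reg3g in these same mice was known, so their diet values are given as a description and without p-values. The samples were C57BL/6J mice, 4 on a control diet (standard chow) and 4 on a zinc depleted diet, each given for 7 weeks without restriction. Cells labelled as purified Paneth cells were sorted by flow cytometry from each mouse, and each mouse gave 1 mRNA library of 8557690 to 12648005 counts. The label was checked with 13 other Paneth cell products, whose summed level was 570034 to 756950 CPM (counts per 1000000) in every mouse. Ages are not in the labels. The zinc depleted chow as a whole was compared with standard chow, so lack of zinc cannot be told apart from any other difference between the chows.

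REG3 lectins are secreted into the gut lumen and the mucus, where they bind bacterial surfaces. Reg3g, the mouse counterpart of human REG3A, binds peptidoglycan and kills Gram-positive bacteria, and Reg3b acts on Gram-negative bacteria. In the intestinal epithelium both genes are known to be raised by interleukin 22, which signals through STAT3, and by microbial products that signal through MyD88. Reg4 is a lectin of secretory cells, found in Paneth, goblet and enteroendocrine cells, while Reg1 and Reg2 were first described in the pancreas.

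Reg3b and Reg3g were higher in every zinc depleted mouse than in any control mouse, by 4.74-fold and 3.03-fold. Reg3a, at a few counts per library, lay on the same side in all mice. Reg4, the REG gene with the most counts, overlapped between the diets. The make-up of the REG transcripts therefore differed between diets, with less of the total on Reg4 and more on both REG3 genes.

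In GENCODE M39 on GRCm39, 5 of the 6 members lie together on chromosome 6, in a span of 98220 bp from 78347640 to 78445859 that also holds Reg2 and no other annotated gene. Along it stand Reg3b (ENSMUSG00000071356, 78347640 to 78350455, plus strand), Reg3d (ENSMUSG00000068341, 78352857 to 78355848, minus strand) and Reg3a (ENSMUSG00000079516, 78357692 to 78360810, plus strand). Reg2 (ENSMUSG00000023140, 78372606 to 78385089, plus strand), Reg1 (ENSMUSG00000059654, 78399694 to 78405828, plus strand) and Reg3g (ENSMUSG00000030017, 78443246 to 78445859, minus strand) follow. Reg3b and Reg3g thus sit at the outer ends of the cluster and on opposite strands. Reg4 (ENSMUSG00000027876) lies alone on chromosome 3, from 98129468 to 98144066 on the plus strand. All 7 annotated mouse REG genes code for protein.

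The promoters of the genes that were higher are shown beside those of Reg3a, their rare neighbour, and Reg4, the gene with the most counts, whose diets overlapped. Each line holds the 250 bases before the start site that RefSeq gives (table of build GRCm38.p6), 5′ to 3′ on the strand of the gene. Each was found once on its chromosome of GRCm39, at chr6:78347618-78347867 for Reg3b, chr6:78445858-78446107 on the minus strand for Reg3g, chr6:78357442-78357691 for Reg3a and chr3:98129222-98129471 for Reg4. Capitals mark every match, on either strand, to the TATA box letters TATAAA or to the STAT motif letters TTCNNNGAA, which read the same on both strands.
Reg3b: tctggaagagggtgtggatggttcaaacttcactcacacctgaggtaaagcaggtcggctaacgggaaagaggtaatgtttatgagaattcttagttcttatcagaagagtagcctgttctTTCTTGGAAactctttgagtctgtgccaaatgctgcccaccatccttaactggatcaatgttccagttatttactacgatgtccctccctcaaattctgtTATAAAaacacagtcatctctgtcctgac
Reg3g: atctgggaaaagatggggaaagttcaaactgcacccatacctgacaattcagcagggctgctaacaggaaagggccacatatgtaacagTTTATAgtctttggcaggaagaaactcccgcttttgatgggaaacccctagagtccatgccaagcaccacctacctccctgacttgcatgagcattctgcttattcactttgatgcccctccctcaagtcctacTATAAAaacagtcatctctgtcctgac
Reg3a: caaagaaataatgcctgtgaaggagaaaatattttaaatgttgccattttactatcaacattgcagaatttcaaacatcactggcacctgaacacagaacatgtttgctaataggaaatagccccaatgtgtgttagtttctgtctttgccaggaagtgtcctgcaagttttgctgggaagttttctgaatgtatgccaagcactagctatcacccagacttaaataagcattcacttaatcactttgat
Reg4: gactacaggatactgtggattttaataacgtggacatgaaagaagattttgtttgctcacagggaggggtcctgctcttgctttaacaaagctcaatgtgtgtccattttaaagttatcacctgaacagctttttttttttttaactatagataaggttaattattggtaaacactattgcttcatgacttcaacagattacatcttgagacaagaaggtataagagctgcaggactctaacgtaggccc

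In Reg3b and in Reg3g a TATA box stood close to the start site, at bases -29 to -24 and -27 to -22, counted back from the base before the start. Reg3g had another match on the opposite strand at -161 to -156. Neither Reg3a nor Reg4 had these letters in the window, and over all REG genes 4 of 7 promoters did, against 12.4% of the 32851 RefSeq promoters of the same length. The STAT motif was matched in Reg3b, as TTCTTGGAA at -129 to -121, and in Reg3d, as TTCCCAGAA at -238 to -230. It was found in 7.02% of the 32851 promoters and not in the window of Reg3g. No binding was measured, so a match is only a run of letters. Reg3b and Reg3g had the most similar promoters of the 21 pairs of REG genes, with 68.4% identity and a common run of 20 bases that ends at the start site, while the next pair, Reg1 and Reg2, had 54.4%. The RefSeq start of Reg3b lies inside the GENCODE gene record, which begins upstream of it.

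Related genes can share reads, so the transcripts were compared. Over the coding sequence, Reg3b and Reg3g were 75.9% identical, Reg3a was 73.8% identical to Reg3b and 72.9% to Reg3g, and Reg4 was 49.7% to 54.5% identical to the other REG genes. The longest run of identical coding bases was 35, between Reg3b and Reg3g. In none of the 7 canonical mRNAs did a window of 50 bases occur in an annotated transcript of another gene, on either strand. A read that matched 50 or more bases exactly could therefore be placed on 1 REG gene. The study gives an average read length above this window for its RNA-seq data. Strand setting and the treatment of reads matching several genes were not stated in the labels or methods read for this work.

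Levels of a gene are given as CPM of the library scaled by TMM factors (TMM-scaled CPM), which correct for a small group of genes holding most counts. Diet differences are log2 fold changes of zinc depleted over control mice with the standard error (SE) of edgeR. Of the 6 members, 4 passed the filter on low counts (Reg1, Reg3b, Reg3g and Reg4), and Reg3a and Reg3d did not.

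Reg3b had 79.3, 174, 126 and 161 TMM-scaled CPM in the control mice, in the order of replicates 1 to 4. In the zinc depleted mice it had 522, 846, 316 and 878 TMM-scaled CPM. The lowest zinc depleted mouse, replicate 3, was thus above the highest control mouse, replicate 2. Means were 135 ± 42.3 and 640.4 ± 269.7 TMM-scaled CPM (SD, n = 4 mice each), and the log2 fold change was 2.25 ± 0.33 (SE). Behind these levels stand 1002 to 2123 counts per control library and 3960 to 9388 per zinc depleted library, so that counting error is small beside the spread between mice.

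Reg3g had 585, 899.7, 687 and 775 TMM-scaled CPM in control replicates 1 to 4. The zinc depleted replicates 1 to 4 had 2059.5, 2466, 1481 and 2911 TMM-scaled CPM. As for Reg3b, zinc depleted replicate 3 was the lowest and replicate 4 the highest of its diet, and no value of one diet fell within the other. Means were 737 ± 133 and 2229.5 ± 608 TMM-scaled CPM (SD, n = 4 each), a log2 fold change of 1.60 ± 0.24 (SE). Reg3g was counted 5453 to 10976 times in control libraries and 18571 to 31123 times in zinc depleted libraries.

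Reg4 showed a different picture. Control replicates 1 to 4 had 1634, 2564, 3888 and 3647 TMM-scaled CPM. Zinc depleted replicates 1 to 4 had 2116, 2979, 1890.2 and 5777 TMM-scaled CPM. Most zinc depleted mice lay within the range of the control mice, and replicate 4 stood above every other mouse. Means were 2934 ± 1040.4 and 3190.6 ± 1787 TMM-scaled CPM (SD, n = 4 each), and the log2 fold change was 0.12 ± 0.35 (SE), smaller than its error. Its sign depended on scaling and on single mice: it was -0.19 ± 0.25 (SE) with library size only, -0.33 without zinc depleted replicate 4 and -0.08 without control replicate 1. As plain CPM, the other 3 zinc depleted mice had 2061 ± 82.1 CPM (SD, n = 3), below every control mouse (3148 ± 474 CPM, n = 4), while replicate 4 had 4883 CPM. No direction is given for Reg4.

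**Figure D1:**
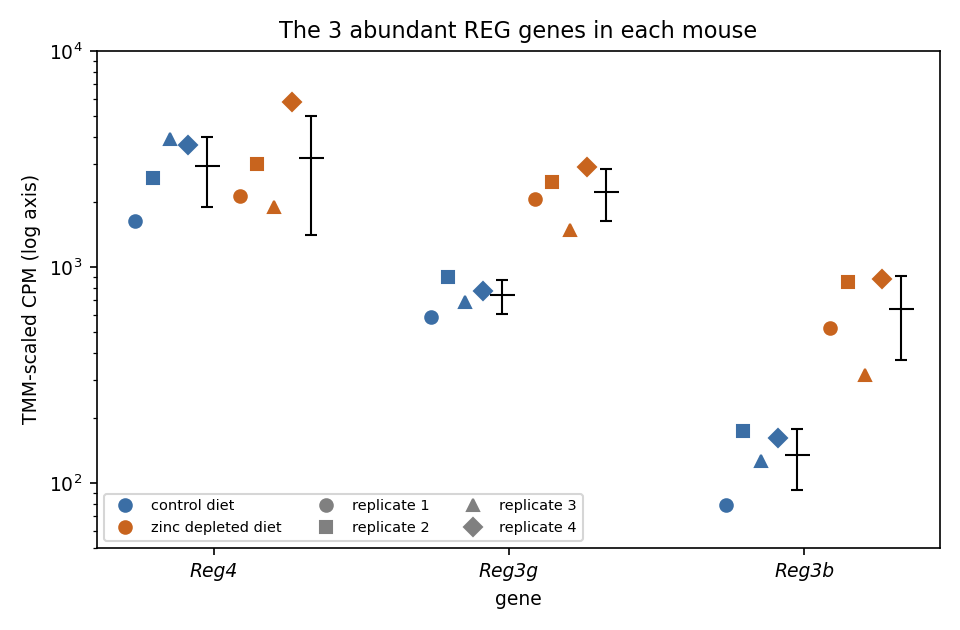
TMM-scaled CPM on a log axis of the 3 abundant REG genes, with 1 point per mouse, colour for the diet and shape for the replicate number, and the black bar for the mean ± SD of 4 mice. The 4 zinc depleted mice lie above all control mice for Reg3g and Reg3b, whereas the diets overlap for Reg4.

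Of the 4 members tested, 2 were higher past the threshold of the fit over all genes (Reg3b and Reg3g, edgeR's quasi-likelihood test, adjusted p under 0.05), and 0 were lower. Over all 10911 genes tested, 44 or 0.403% passed it, 0.147% higher and 0.257% lower. The same 2 members did not overlap between diets, as did 2.3% of all genes in the higher and 3.79% in the lower direction. Because this contrast is the one known when the family was chosen, nothing is read from these shares. Leaving out 1 mouse left 8 to 36 genes past the threshold (8 without control replicate 2, 8 without control replicate 4, 26 without zinc depleted replicate 1, 13 without zinc depleted replicate 2 and 17 without zinc depleted replicate 4). Reg3g stayed past it without any 1 mouse, with log2 fold changes of 1.44 to 1.75. Reg3b kept values of 2.06 to 2.47 but was no longer past it without control replicate 1, control replicate 4 or zinc depleted replicate 4.

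Scaling changed the size of these differences. With library size only, the log2 fold changes were 1.87 ± 0.24 (SE) for Reg3b and 1.22 ± 0.19 (SE) for Reg3g, and the median of all genes moved from -0.01 to -0.37. Relative to that median, Reg3b was at 2.24 with library size and 2.25 with TMM, and Reg3g at 1.59 and 1.60. A change of scaling shifts all genes by a similar amount, so this closeness follows from the arithmetic and is not further evidence. TMM factors ranged from 0.928 to 1.57 in control mice, with 1.57 in replicate 1, and from 0.719 to 1.10 in zinc depleted mice. In a bulk sample of sorted cells, a smaller number of cells of one type and less RNA per cell cannot be told apart.

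Among the rare members, Reg3a had 2, 0, 2 and 1 counts in control replicates 1 to 4 and 8, 10, 12 and 13 counts in zinc depleted replicates 1 to 4. Every zinc depleted mouse was above every control mouse. The sums were 5 and 43 counts, a ratio of 7.80 after division by the library totals (95% exact interval 3.10 to 25.2, which covers counting error only). Reg3a did not pass the filter of edgeR. DESeq2, an alternative run without that filter, put it past the threshold together with Reg3b and Reg3g. Of the 12270 genes to which DESeq2 gave an adjusted p, 0.497% were called higher. This contrast was known when the family was chosen, so nothing is read from these calls either.

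Reg1 had 0, 5, 5 and 14 counts in control replicates 1 to 4 and 17, 2, 51 and 14 counts in zinc depleted replicates 1 to 4. Its diets overlapped, and zinc depleted replicate 3 held most of the counts of its diet. The log2 fold change of 1.74 ± 0.86 (SE) came with a range of 1.01 to 2.67 when 1 mouse was left out. Reg3d had 2 counts, both in zinc depleted replicate 1, and 0 in the other mice. Reg2 had 0 counts in all libraries, where 3 counts would be 0.0349 CPM over the 8 libraries.

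**Figure D2:**
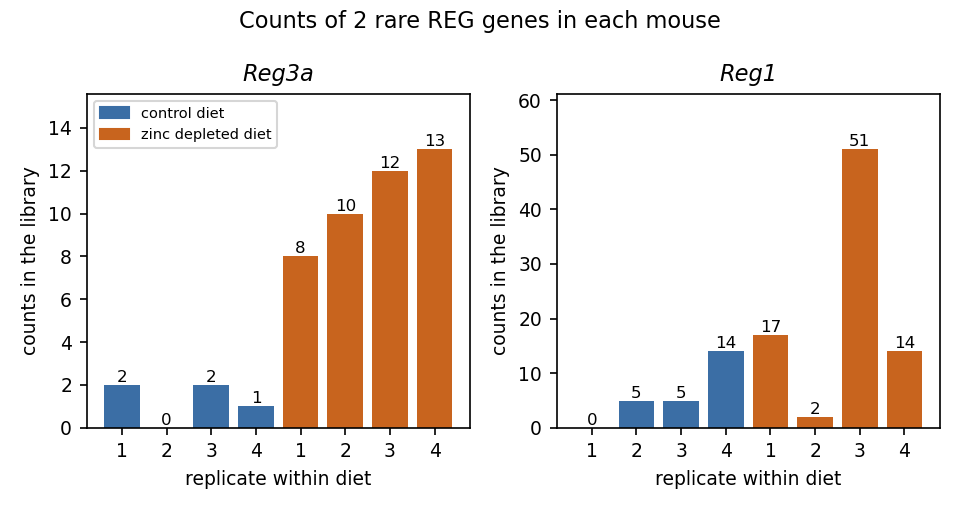
Counts of Reg3a and Reg1 in the library of each mouse, with bars coloured by diet and the count above each bar. Reg3a has 0 to 2 counts in control mice and 8 to 13 in zinc depleted mice, while the counts of Reg1 overlap and reach 51 in zinc depleted replicate 3.

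Within a mouse, the REG genes can be compared with each other without any scaling between libraries. Reg4 held 71.1%, 70.5%, 82.7% and 79.6% of the REG counts in control replicates 1 to 4. In zinc depleted replicates 1 to 4 it held 45.0%, 47.3%, 51.2% and 60.4%. The share of Reg4 was thus lower in every zinc depleted mouse than in any control mouse, with means of 76.0% ± 6.11 and 51.0% ± 6.76 (SD, n = 4 each). Reg3g held 20.4% ± 5.48 of the REG counts in control mice and 38.4% ± 5.67 in zinc depleted mice. For Reg3b the shares were 3.61% ± 0.869 and 10.6% ± 2.20. Neither of the REG3 genes overlapped between diets in its share. These shares follow from the same contrast and are not further evidence of it.

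Reg3b also differed relative to Reg3g. Counts of Reg3g over those of Reg3b were 7.38, 5.17, 5.44 and 4.82 in control replicates 1 to 4. In zinc depleted replicates 1 to 4 this ratio was 3.95, 2.92, 4.69 and 3.32. The lowest control mouse, at 4.82, and the highest zinc depleted mouse, at 4.69, were close to each other but did not overlap, and the means were 5.70 ± 1.15 and 3.72 ± 0.775 (SD, n = 4 each). Counts of Reg4 over those of Reg3g had means of 4.00 ± 1.42 in control and 1.37 ± 0.420 in zinc depleted mice, with 1.03 in zinc depleted replicate 1, where both genes had nearly the same count.

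**Figure D3:**
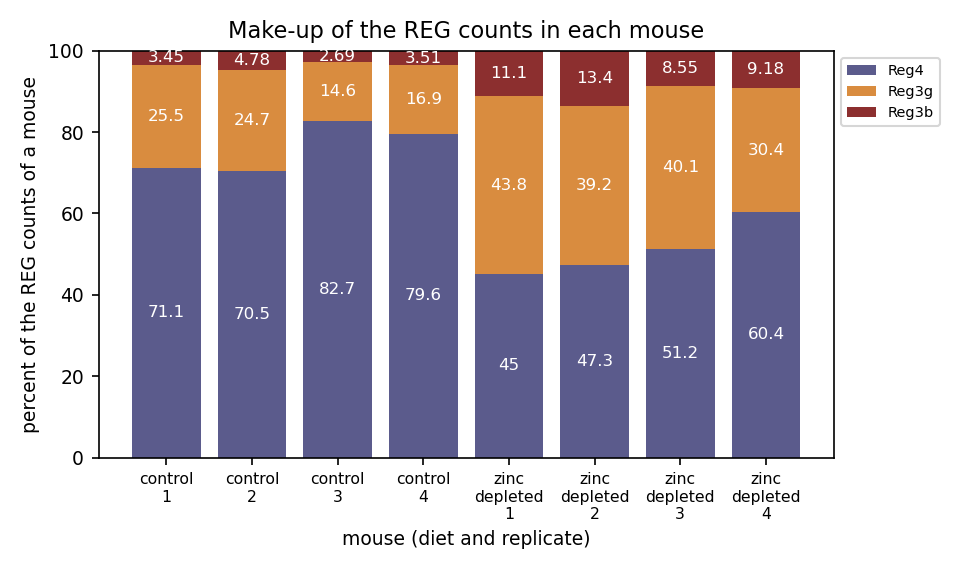
Stacked bars of the percentage of REG counts in each mouse that fell on Reg4, Reg3g and Reg3b, with the percentage written in each part. Reg4 takes 70.5% to 82.7% in control mice and 45.0% to 60.4% in zinc depleted mice.

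As a whole, the REG genes took 0.360%, 0.422%, 0.436% and 0.434% of all counts in control replicates 1 to 4. They took 0.439%, 0.452%, 0.404% and 0.809% in zinc depleted replicates 1 to 4. The means were 0.413% ± 0.0357 and 0.526% ± 0.190 (SD, n = 4 each), and the diets overlapped. The highest share, 0.809% (95% Wilson interval 0.804% to 0.814%, counting error only), was that of zinc depleted replicate 4, the mouse with 61765 counts of Reg4. By mean CPM among all genes, Reg4 ranked 17 in control and 19 in zinc depleted mice, Reg3g ranked 33 and 22, and Reg3b ranked 306 and 49.

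Between genes, levels were compared per length of the summed exons and library total (RPKM). Reg4 was highest with 2502 ± 843 RPKM (SD, n = 8 mice), followed by Reg3g with 645 ± 303 and Reg3b with 242 ± 168 RPKM. Reg1 followed with 1.15 ± 1.32, Reg3a with 0.476 ± 0.400 and Reg3d with 0.0322 ± 0.0911 RPKM. Each of the first 3 steps of this order held in 8 of 8 mice (differences of 2.04 ± 0.92, 1.59 ± 0.42 and 6.68 ± 1.11 in log2(RPKM + 1), SD), with p = 0.00781 in an exact two-sided sign-flip permutation test, the smallest that 8 mice allow, and an adjusted p of 0.0130 over the 5 pairs of neighbours. The size of the step from Reg3b to Reg1 depends on the pseudocount, and was 7.21 with 0.5 and 5.04 with 5. Reg1 and Reg3a, with Reg1 higher in 6 of 8 mice, did not differ beyond their spread (difference of 0.40 ± 0.66, exact permutation adjusted p = 0.141). For Reg3a over Reg3d the difference was 0.47 ± 0.39 (SD; exact permutation adjusted p = 0.0195). Reg3d had 2 counts, both in 1 mouse, and Reg3a had 0 to 2 counts in control mice and 8 to 13 in zinc depleted mice. This difference comes mostly from the diet in which Reg3a was high, so no order is read from it. The first step depends on the length used. With the length of the canonical transcript, chosen after seeing the data, Reg4 was above Reg3g by 0.77 ± 0.92 (SD; exact permutation adjusted p = 0.0781). On that scale Reg3g had 1070.5 ± 234 RPKM in control and 2499 ± 471 RPKM in zinc depleted mice, beside 3066 ± 462 and 2694 ± 1376 RPKM for Reg4 (SD, n = 4 each). Reg3g was above Reg4 in 0 of 4 control mice and in 3 of 4 zinc depleted mice (2472 and 1924, 2277 and 2084, 2082 and 2013 RPKM in replicates 1 to 3), while in replicate 4 Reg4 had 4755 and Reg3g 3163 RPKM.

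Mice of the same diet also differed from one another. The diet comparison takes the size of this spread as its error, but does not use whether genes deviate together in the same mice. For each mouse the deviation of log2(TMM-scaled CPM + 1) from the mean of its diet was taken, and the 4 members with a mean over 1 CPM were compared in 6 pairs. Reg3b and Reg3g deviated together, with Pearson r of 0.968 and Spearman rho of 0.952 over the 8 mice (exact permutation within diets, p = 0.00174 for both, adjusted p = 0.0104). Without control replicate 1 and zinc depleted replicate 3, the 2 mice farthest from the median for Reg3b, r was 0.908 (exact permutation p = 0.0278, the smallest that the remaining mice allow, and adjusted p = 0.167). Leaving out any 1 mouse gave r of 0.936 to 0.977, past the threshold in 8 of 8 cases (exact permutation adjusted p = 0.0417). With library size only in place of TMM, r was 0.732 (exact permutation adjusted p = 0.365). Both genes of a mouse carry the same scaling factor, and the relation did not pass the threshold without that factor.

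Reg4 varied less closely with either gene, with r of 0.764 to Reg3b (rho 0.762) and 0.733 to Reg3g (rho 0.643), neither past the threshold (exact permutation adjusted p = 0.153 for both r, 0.151 and 0.250 for rho). Without the 2 farthest mice these r were 0.480 and 0.512. Reg1 had r of -0.37 to Reg3b, -0.40 to Reg3g and -0.02 to Reg4 (rho -0.52, -0.43 and -0.10; exact permutation adjusted p = 0.548, 0.548 and 0.964 for r, 0.450, 0.450 and 0.865 for rho). Without zinc depleted replicates 2 and 3 the r of Reg1 turned to 0.488, 0.249 and 0.427.

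**Figure D4:**
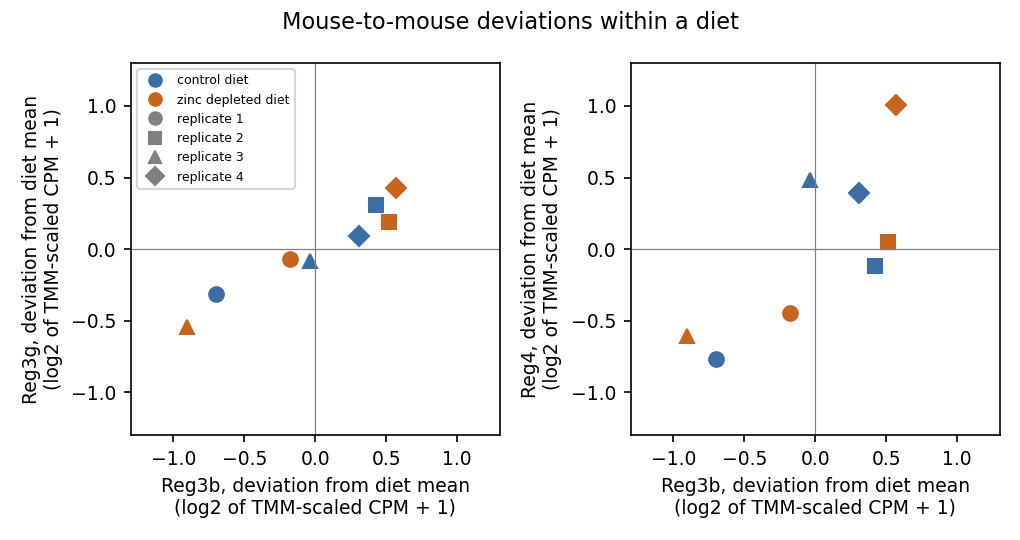
Deviation of each mouse from the mean of its diet, in log2(TMM-scaled CPM + 1), for Reg3b on the horizontal axis against Reg3g (left) and Reg4 (right) on the vertical axis, with colour for the diet and shape for the replicate number. The points of Reg3g lie near a line (r = 0.968), and those of Reg4 scatter more (r = 0.764).

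Among 5791 genes averaging 10 CPM or more, those whose log2(TMM-scaled CPM + 1) over the 8 mice was most like that of Reg3b were Reg3g (r = 0.992), Defa41, an alpha-defensin (0.978), Mptx2, a mucosal pentraxin (0.973), Grpel2, a mitochondrial co-chaperone (0.964), and Acadl, a dehydrogenase of fatty acid oxidation (0.952). For Reg3g they were Reg3b, Grpel2 (0.977), Cfi, complement factor I (0.974), Defa41 (0.973) and Abhd17b, a depalmitoylating enzyme (0.965). These r contain the diet difference and the scaling factor that all genes of a mouse share, and are given as a description. Within diets, Mptx2 had r of 0.917 to Reg3b and Grpel2 had 0.900 to Reg3g.

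The pathways that are known to raise REG3 genes were looked at through lists of their genes. Of 13 genes of IL-22 and STAT3 signalling 11 were tested, and 0 were past the threshold (edgeR, adjusted p under 0.05) in either direction, with a median log2 fold change of 0.08 beside -0.01 over all genes tested. At an unadjusted p under 0.05 there were 2 (Stat3 and Socs3), where 10.5% of all genes tested were, and DESeq2 called 0, where it called 0.497% of all genes higher and 0.595% lower. Stat3, the transcription factor, had 51.0 ± 6.67 TMM-scaled CPM in control and 68.5 ± 14.4 in zinc depleted mice (log2 0.42 ± 0.16 SE, edgeR adjusted p = 0.334). Jak1, a kinase of the receptor, had a log2 fold change of 0.06 ± 0.13 (SE). Socs3, a STAT3 target and inhibitor of the pathway, was singled out after its values were seen, with 8.83 ± 1.75 and 15.7 ± 5.08 TMM-scaled CPM (log2 0.81 ± 0.23 SE, edgeR adjusted p = 0.154). Neither gene passed the threshold. Il22, listed among the immune cell markers, had 0 counts in all libraries. Sorted Paneth cells cannot show whether other cells of the gut made it. These values are mRNA levels, and signalling was not measured.

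For microbial sensing (Toll-like receptors, NOD2 and their adaptors), 14 of 20 genes were tested and 0 passed in edgeR (1 at an unadjusted p under 0.05, and 0 in DESeq2), with a median of -0.08. Irak1, a kinase downstream of MyD88, had a log2 fold change of 0.11 ± 0.15 (SE), and Nfkbia, an inhibitor of NF-κB, had -0.13 ± 0.17 (SE). Cd14, a co-receptor for lipopolysaccharide, did not overlap between diets, with 1.85 ± 0.378 TMM-scaled CPM in control and 0.705 ± 0.587 in zinc depleted mice (edgeR adjusted p = 0.365). Among 16 other epithelial genes that microbes or cytokines are known to raise, 6 were tested and 0 passed in edgeR, with a median of 0.07. At an unadjusted p under 0.05 there was 1, Duox2, which was lower (log2 -0.62 ± 0.24 SE). DESeq2 called 1 higher, Saa1, which had 28 counts over all mice and 0 in the control mice. Both are named because of these counts. The most abundant were Pigr, which carries IgA into the lumen (log2 -0.03 ± 0.20 SE), and Lypd8, which binds flagellated bacteria (0.18 ± 0.18 SE).

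For the other Paneth cell products, 13 of 13 listed genes were tested and 0 passed in edgeR, with 6 at an unadjusted p under 0.05 and 4 called higher by DESeq2 (Pla2g2a, Mptx2, Defa21 and Defa22). All 13 had a fold change above 0 on TMM scaling, with a median of 0.52 (0.16 with library size only). The values of 4 of them did not overlap between diets: Ang4, an antimicrobial ribonuclease (0.99 ± 0.35 SE), Mptx2 (1.45 ± 0.34 SE), and the alpha-defensins Defa21 (0.78 ± 0.31 SE) and Defa22 (0.82 ± 0.31 SE). Defa41, an alpha-defensin that is not on this list and was named above for its likeness to Reg3b, was past the threshold (1.42 ± 0.18 SE, edgeR adjusted p = 0.00156). The study calls the assignment of reads among alpha-defensin genes challenging, because their sequences are so alike. Read sharing was checked here for the REG genes only. The values of the alpha-defensins named in this text may therefore include reads of related genes. The most abundant listed products, Defa24 and the lysozyme Lyz1, had 0.46 ± 0.40 and 0.43 ± 0.37 (SE). Of the 5 genes of the zinc response 0 passed in edgeR, 0 in DESeq2 and 0 at an unadjusted p under 0.05, with a median of -0.08, among them the zinc exporter Slc30a2 of secretory granules (0.19 ± 0.15 SE) and the zinc importer Slc39a4 (-0.08 ± 0.23 SE). Over the 11 lists other than the REG genes, 82 genes were tested, and edgeR put 0 past the threshold on the higher and 2 on the lower side.

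**Figure D5:**
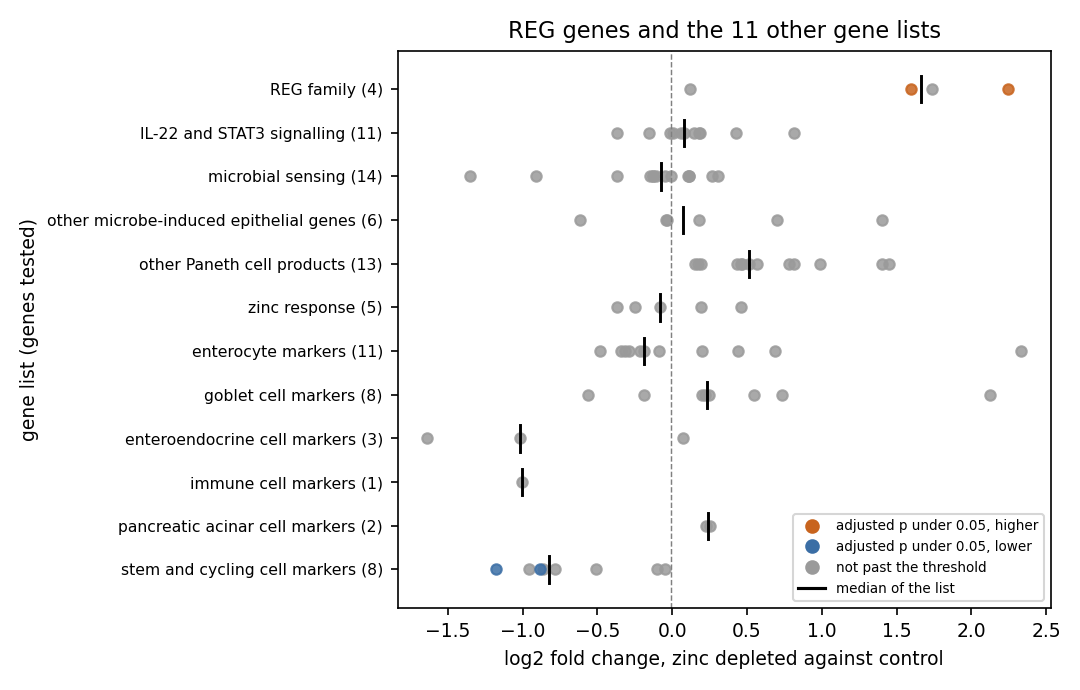
Log2 fold change of zinc depleted over control mice for each tested gene of the REG family and of 11 other lists (number of genes tested in brackets), coloured by whether the gene passed an adjusted p of 0.05, with the median of each list as a black line and that of all genes as a dashed line. Reg3g and Reg3b are the only genes shown that passed the threshold on the higher side, and 2 stem and cycling cell markers passed it on the lower side.

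Markers of other cells that a sort could hold were compared as well. The summed level of 8 stem and cycling cell markers was 1372 to 2217 CPM in control and 525 to 1106 CPM in zinc depleted mice, most of it from Olfm4 (mean of 1063 CPM), and did not overlap. Of the 8, 2 were lower past the threshold, Top2a (log2 -1.18 ± 0.21 SE, edgeR adjusted p = 0.0229) and Mcm6 (-0.88 ± 0.18 SE, edgeR adjusted p = 0.0376). Top2a was not called without control replicate 2 or 4 or zinc depleted replicate 2 or 4 (-1.01 to -1.16, edgeR adjusted p of 0.0506 to 0.108). With 1 mouse left out, Mcm6 was called without control replicate 3 or zinc depleted replicate 1, and without any other mouse it had -0.80 to -0.90 (edgeR adjusted p of 0.0727 to 0.155). The stem cell marker Olfm4 (-0.96 ± 0.25 SE) and Lgr5 (-0.51 ± 0.20 SE) did not overlap between diets and did not pass the threshold (edgeR adjusted p = 0.108 and 0.337). At an unadjusted p under 0.05 there were 6 of the 8, and DESeq2 called 3 lower (Olfm4, Top2a and Mcm6). Pcna (-0.05 ± 0.15 SE) and Smoc2 (-0.10 ± 0.14 SE), named to complete the list's range, differed by less than their errors. The part of these cells in the REG values was not tested.

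The remaining 5 marker lists had 0 genes past the threshold in edgeR and in DESeq2, and 1 at an unadjusted p under 0.05. Goblet cell markers summed to 7275 to 10509 CPM in control and 7218 to 12119 CPM in zinc depleted mice, most of it from Spink4 (mean of 6129 CPM). The highest sum was that of zinc depleted replicate 4, the mouse highest in Reg4. Not every goblet cell marker was high in that mouse: Fcgbp and Zg16 were at their lowest of all mice (111 and 0.374 TMM-scaled CPM). The part of goblet cells in its Reg4 value was not tested. Among the goblet cell markers, Spink4 had a log2 fold change of 0.22 ± 0.31 (SE) and Agr2 0.55 ± 0.28 (SE). Enteroendocrine markers summed to 33.4 to 88.0 and 17.0 to 29.4 CPM, which did not overlap as plain CPM, and overlapped with TMM scaling (25.0 to 93.0 and 20.1 to 40.9). Their part in the values of Reg4 was not tested. Among them were Chgb at -1.01 ± 0.51 (SE) and Sct at 0.07 ± 0.25 (SE). Enterocyte markers summed to 364 to 527 and 230 to 499 CPM, with Anpep at -0.09 ± 0.15 (SE). Of 11 immune cell markers 7 were at 0, among them Cd3e, Cd4 and Cd8a. Of 11 pancreatic acinar cell markers 8 were at 0, among them Prss2, Cpa1 and Amy2a5, and the sum of 2848 to 4026 and 2689 to 4241 CPM was nearly all Clps (0.23 ± 0.29 SE), with Cela1 at 0.25 ± 0.26 (SE).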

How the data were processed

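RNA-seq was made from sorted Paneth cells of 8 mice with an Illumina TruSeq stranded mRNA kit. What the authors deposited is 1 table of raw counts, whole numbers of reads on each Ensembl gene in the 8 mice. The submitters' processing notes name FastQC 0.12.0, STAR 2.7.0a, DESeq2 and the build mm39. The counting program, its strand setting and its treatment of reads that match several genes were not stated there or in the methods. Symbols and positions came from GENCODE M39 on GRCm39, the same build, in which 54749 of 55414 identifiers were found. Columns were matched to mice by diet and replicate number.

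Diets were compared over all genes with edgeR 4.0.16 in R 4.3.3, with TMM normalization, the expression filter of edgeR (10911 genes kept), the robust quasi-likelihood test, Benjamini-Hochberg adjustment and a threshold of 0.05. CPM, TMM-scaled CPM, RPKM and shares were computed from the counts with Python 3.11.15, numpy 2.4.6, pandas 2.3.3 and scipy 1.17.1, with a pseudocount of 1 on log scales. DESeq2 1.42.0 served for other size factors and as another test. Promoters and coding sequences were aligned end to end with Biopython 1.88. The edgeR and permutation steps were tested on simulated data. Total counts per mouse, 8557690 to 12648005, put a level of 3 counts at 0.237 to 0.351 CPM. Intervals and such floors cover counting error only. Replicates are separate mice per the labels, and no 2 mice of a diet agreed within sampling noise (chi-square per degree of freedom from 5.70 to 59.3).

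The REG genes, the gene lists and the tests were chosen with earlier results of these data known. The text names every REG gene, every list gene past the threshold, the 2 most abundant genes of each list, list genes whose diets do not overlap, and the 5 genes most like Reg3b and Reg3g. Single values of some list genes are not reported here. Alternatives cover scaling, filter, test, pseudocount, gene length, a block by replicate number, and leaving out each mouse.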

Additional observations from a re-analysis of the deposited data

Results flagged for a closer look

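The share of all counts that fell on the REG genes was 0.809% in zinc depleted replicate 4, far from the other 3 mice of that diet (0.404% to 0.452%). Its gap to the nearest mouse was 0.881 of the whole range, above the critical value of 0.829 for 4 samples. It was 1 of 24 groups of 4 mice looked at, and chance flags about 1 in 20. In this mouse Reg4 had 61765 counts, Reg3g 31123 and Reg3b 9388, each the highest of all mice, and goblet cell markers also had their highest sum. Most of that sum was Spink4. Single goblet cell markers went both ways in TMM-scaled CPM. Spink4, Muc2, Agr2 and Clca1 were at their highest of all mice there (9171, 2433, 1637 and 174). Fcgbp and Zg16 were at their lowest (111 and 0.374), and Tff3 and Ramp1 lay between. The part of goblet cells in the share was not tested.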

How the results depend on the processing

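The diet differences of Reg3b and Reg3g kept their direction under every alternative run, and Reg3g its side of the threshold. Over all results and settings, 221 values were counted as the same, 31 moved, 17 reversed, 19 fell short of the threshold and 1 passed it. Where a result had a threshold, the same means the same direction and side of it. Numbers of genes called were judged by closeness to the main fit. The difference in the REG share, which has no threshold, counted as the same though it fell from 0.113 to 0.0185 percentage points without zinc depleted replicate 4. In place of 44 genes called (16 higher, 28 lower), there were 11 with library size only (5 and 6), 25 without the robust option (11 lower), 251 without the filter on low counts (107 and 144) and 134 with DESeq2 (61 and 73). With 1 mouse left out there were 8 to 36 (5 to 27 higher, 3 to 20 lower). Reg3b ranged from 2.06 to 2.47 with 1 mouse left out, short of the threshold in 3 cases. Reg4 had 0.12 and reversed to -0.19 with library size only, and to -0.08 and -0.33 without control replicate 1 and zinc depleted replicate 4, within a range of -0.33 to 0.31. Reg4 above Reg3g per length was 0.77 with canonical lengths, and Reg1 above Reg3a ranged from 0.26 to 0.55 with 1 mouse left out, past the threshold without zinc depleted replicate 2. The within-diet r of Reg3b and Reg3g was 0.732 with library size only and 0.908 without the 2 farthest mice, where its exact p was the smallest possible. For Reg1, r reversed without the 2 farthest mice (0.488 with Reg3b, 0.249 with Reg3g, 0.427 with Reg4), with a pseudocount of 0.5 (0.0581 with Reg4), and with 1 mouse left out (-0.78 to 0.193 with Reg3b, -0.71 to 0.178 with Reg3g, -0.34 to 0.405 with Reg4). With library size only, where the median of all genes was -0.37, the medians of the lists reversed to -0.31 for IL-22 and STAT3 signalling, -0.23 for microbe-induced genes, -0.042 for goblet cell and -0.063 for pancreatic acinar cell markers. Relative to the median of all genes, these 4 lists were at 0.0624, 0.137, 0.327 and 0.306 in the same order, as a change of scaling shifts all genes by a similar amount. The cause of the other changes was not tested.

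Same-numbered mice of the diets had correlations of their deviations of 0.114, 0.0925, 0.00489 and 0.0926, so the numbers were not taken to pair the mice. The fit with the replicate block called 53 genes (24 higher and 29 lower), of which 36 were among the 44. Depth limits what can be said of Reg3a, Reg3d and Reg1. The canonical length, the share of TMM-scaled counts and the values of Reg4 without single mice were chosen after seeing the data.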

Other observations

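A few genes outside the REG family differed strongly between single mice of a diet, and are given as values chosen after they were seen. Retnlb, an antibacterial goblet cell protein, had 53.6 TMM-scaled CPM in zinc depleted replicate 4 and 3.66 to 12.3 in the other 7 mice. Clca1, a goblet cell product, had 105 and 174 TMM-scaled CPM in zinc depleted replicates 3 and 4 and 2.40 to 21.7 in the other mice. The acute-phase gene Saa1 had 0 counts in the control mice and 0.160 to 2.05 TMM-scaled CPM in the zinc depleted mice, highest in replicate 1. Ghrl, the ghrelin gene of enteroendocrine cells, had 51.8 TMM-scaled CPM in control replicate 4 and at most 3.93 in the other mice.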
